A study of Mus musculus with 2 samples.

Results

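A set of 35 meiosis and spermatogenesis genes was examined in mouse embryonic fibroblasts (MEF) that lack Lsh. Members were taken from a list of meiotic chromosome, recombination and germ cell genes, and the list was drawn up with the differences between these arrays known. Of the 35 genes, 31 were matched to a row of the expression table, among 16579 measured genes in all. No row was matched to Hormad1, Mnd1, Zcwpw1 or Tdrd6, which were not analysed here. Each gene was represented by its brightest row, the one with the highest mean of both arrays. The value that entered the choice of members was the difference between the arrays. The members' differences are therefore a description and carry no test.

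Fibroblasts of the genotypes Lsh+/+ (wild type) and Lsh-/- (knockout) were grown in the same serum-supplemented medium, and total RNA of each was hybridised to 1 Affymetrix Mouse Genome 430 2.0 array. Lsh, encoded by Hells, is a chromatin remodeller of the SNF2 family that is needed for normal DNA methylation. The study asked how loss of cytosine methylation outside repeats relates to the activity of genes. Since each genotype had a single array, there was neither a replicate error nor a p-value, and a difference between the genotypes cannot be told apart from one between these cultures or arrays. Embryonic age, number of embryos and passage are not given in the sources used here.

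In meiosis, homologous chromosomes are paired and held together by the synaptonemal complex, a protein zipper built on chromosome axes that carry meiosis-specific cohesins. The enzyme Spo11 cuts the DNA, and recombination proteins turn some of the breaks into crossovers. Most of these genes are switched on only in germ cells. In somatic cells many of them are kept silent, several by DNA methylation of CpG-rich promoters and by repressor complexes that contain E2F6.

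Hells read 6.68 on the wild type array and 5.22 on that of the knockout, as log2 values, 2.75-fold lower. Where its probes sit relative to the deletion is not stated in the labels, so the value is no check of the knockout by itself. Of 12 fibroblast markers 11 reached the limit described next on at least 1 array, with Fn1 (fibronectin) at 12.5 on both. Thy1, another such marker, read 1.93 and 1.87, below that limit on both arrays. Of the 12, 5 were at least 2-fold lower, against 3.35% of all measured genes and 6.06% of those kept by the limit. The difference was below 0 in 11 of the 12 and above 0 in 1. Among the 5 were the collagen gene Col1a2 at 11.5 and 7.06 and S100a4 at 10.3 and 6.29. The proteoglycan gene Lum read 6.32 and 2.69 and the growth factor receptor gene Pdgfra 6.12 and 4.93. The summed linear level of the markers was 22042.9 and 15808.2, and its part in the members' differences was not tested. The gap between the 3′ and 5′ control probe sets was wider in the knockout by 0.60 for Actb and 0.70 for Gapdh and narrower for 18S ribosomal RNA, at -0.59. The 9 hybridisation control probe sets read brighter in the knockout, with a median difference of 0.44. The part of these technical differences in the results below was not tested beyond the rescaled values given with them.

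A gene was kept where the brighter of its values reached the array-wide median, 3.86 with Lsh and 3.88 without. Values at or above it are called bright and values below it dim. This limit on dim values is not a detection limit, since the background of each probe is not known here. By it, 8 of the 31 measured members were kept and 23 lay below the limit on both arrays. Of the 31, 6 (19.4%) were higher in the knockout by 2-fold or more and 0 were at least 2-fold lower. Among all measured genes 2.57% were higher and 3.35% lower by the same rule, and among the genes kept by the limit 4.65% and 6.06%. Of the members that were dim in the wild type, 6 of 29 were at least 2-fold higher, against 2.26% of the 7888 genes that were dim there. By this rule a gene dim in the wild type cannot count as lower, and 0 of the 7888 did. Only Psmc3ip and Bnc1 could therefore have counted as lower members, so the 0 was nearly fixed by the rule. The 6 higher members reached the limit on the knockout array alone. Set over the wild type limit, Tex101, Ddx25 and Mns1 were at least 4.84-, 5.04- and 2.58-fold higher. Tex15, Ccnb1ip1 and Stag3 were at least 1.56-, 1.30- and 1.19-fold higher. Their place past 2-fold rests on dim wild type values taken at face value. The members were chosen with these differences known, so the shares are set side by side and nothing is read from them. The same holds for the counts by role given below. In a bulk RNA sample, more RNA per cell and more cells that hold the RNA cannot be told apart.

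**Figure D1:**
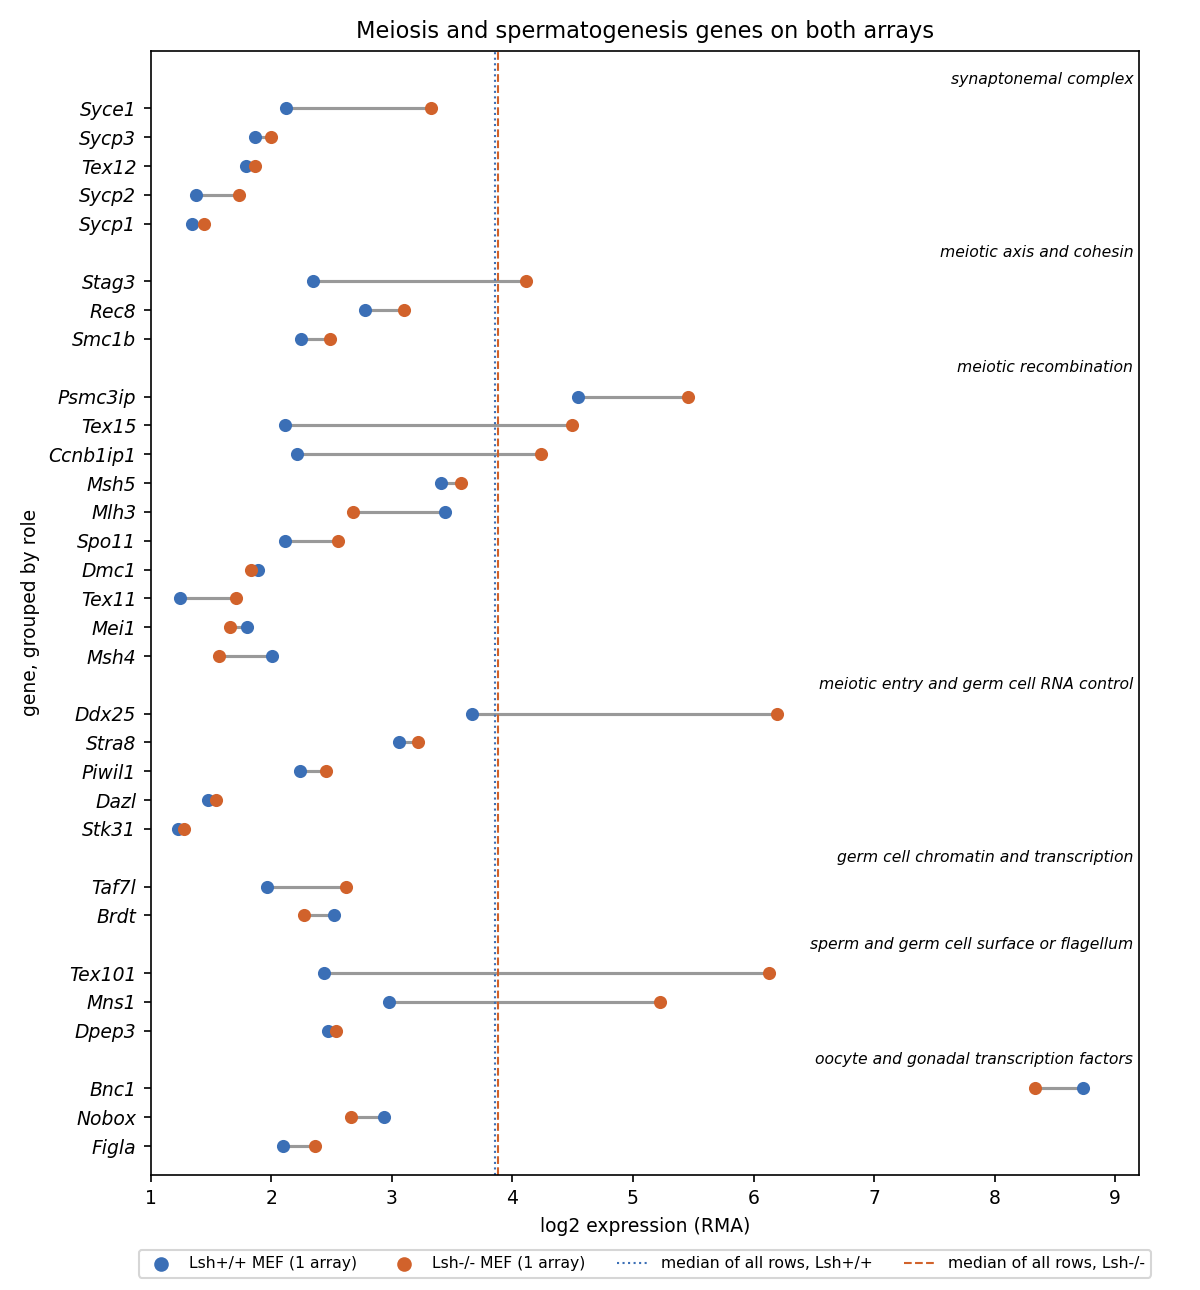
Log2 expression (horizontal axis) of the 31 measured members, grouped by role, in Lsh+/+ MEF (blue) and Lsh-/- MEF (orange), 1 array each; vertical lines mark the median of all rows on each array. In Tex101, Ddx25, Mns1, Tex15, Ccnb1ip1 and Stag3 the pair of points crosses the medians, Psmc3ip and Bnc1 lie above them on both arrays, and the other 23 genes lie below.

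Of 3 measured genes of the germ cell surface or the sperm flagellum, 2 were higher in the knockout, and Tex101 differed most of all members. Tex101, which encodes a glycoprotein of the germ cell surface required for sperm fertility in the mouse, read 2.44 with Lsh and 6.13 without it. It was dim with Lsh and bright without it. Measured as deposited, this was a 12.9-fold difference (3.69 on the log2 scale), with the dim wild type value taken at face value. Because the wild type value lay below the limit, the fold is also given over the limit, as at least 4.84-fold. Mns1, needed for the assembly of sperm flagella and motile cilia, read 2.97 and 5.22, at least 2.58-fold higher and 4.76-fold as measured. The third gene with a role at the sperm or germ cell surface, the dipeptidase Dpep3, read 2.47 and 2.53 and was dim on both arrays. The members of this role were thus split, with Tex101 and Mns1 bright in the knockout and Dpep3 not.

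Ddx25 encodes a testis RNA helicase that is required to complete spermatid development in the mouse. It read 3.66 in the wild type, just under the limit, and 6.19 in the knockout, at least 5.04-fold higher and 5.77-fold as measured. The other measured members that act in meiotic entry or in germ cell RNA control were dim on both arrays. Stra8, the retinoic acid-induced gatekeeper of meiosis, read 3.06 and 3.22, and Dazl, an RNA-binding protein of germ cells, read 1.48 and 1.54. The piRNA-binding protein gene Piwil1 read 2.24 and 2.45, and the kinase-like Stk31 read 1.23 and 1.28. Stra8, Dazl, Piwil1 and Stk31 were therefore below the limit on both arrays, while Ddx25 was above it in the knockout.

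Among 10 measured genes of meiotic recombination, 2 were higher in the knockout past 2-fold, 1 was bright on both arrays and 7 stayed dim. Over all measured genes 2.57% were higher past 2-fold and 7411 of 16579 were dim on both arrays. Tex15, required for the repair of meiotic breaks and for silencing of transposons in mouse male germ cells, read 2.12 and 4.50, at least 1.56-fold over the limit and 5.21-fold as measured. Ccnb1ip1, also known as Hei10, a ring-finger protein needed for crossovers, read 2.22 and 4.23, at least 1.30-fold over the limit and 4.05-fold as measured. Both genes were dim in the wild type and bright in the knockout. Psmc3ip, also known as Hop2, which helps the recombinase Dmc1 to invade DNA, read 4.54 and 5.45, bright in each genotype, and its difference of 0.91 did not reach 2-fold.

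The core enzymes of meiotic recombination stayed dim. Spo11, which makes the breaks, read 2.12 and 2.55, with all 3 of its rows holding the same values. The recombinase Dmc1 read 1.89 and 1.83, and Mei1, required for break formation, 1.80 and 1.66. The pair of values of Mei1 was shared exactly by 10 other genes, so it cannot be read as a level of that gene alone. The mismatch repair relatives Msh4 and Msh5, which stabilise crossover intermediates, read 2.01 and 1.56, and 3.41 and 3.57. Mlh3, which resolves crossovers, read 3.44 and 2.68, at -0.76 the lowest difference of the 31 members. Tex11, an X-linked regulator of synapsis and crossovers, read 1.25 and 1.70.

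Of the chromosome axis and cohesin genes, Stag3 alone passed 2-fold. Stag3, the meiosis-specific cohesin subunit, read 2.35 and 4.11, a 3.39-fold difference as measured and at least 1.19-fold over the limit. It lay 0.23 above the limit on the knockout array, closer to it than any other kept member. Its partners in meiotic cohesin, Rec8 and Smc1b, read 2.78 and 3.10, and 2.25 and 2.48, and were dim on both arrays. In the gene table Stag3 overlaps Gpc2, a glypican gene whose row was also higher in the knockout, at 2.76 and 3.90. Whether probes of the pair of genes pick up the same RNA was not tested.

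The 5 genes of the synaptonemal complex all lay below the limit on both arrays. Sycp1, the transverse filament protein, read 1.34 and 1.44. The axial element proteins Sycp2 and Sycp3 read 1.37 and 1.73, and 1.87 and 2.00. Of the central element genes, Tex12 read 1.79 and 1.87, and Syce1 read 2.12 and 3.33. The difference of Syce1, 1.21, was past 2-fold, but its knockout value stayed below the limit, so it was not counted. Without the limit 7 of 31 members were at least 2-fold higher and 0 lower, against 2.91% and 3.63% of all measured genes.

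Germ cell transcription regulators were dim or did not reach 2-fold. The testis bromodomain gene Brdt read 2.52 and 2.27, with its second row at 1.87 and 1.79, and the X-linked TFIID relative Taf7l read 1.96 and 2.62. The oocyte transcription factors Figla and Nobox read 2.10 and 2.36, and 2.94 and 2.66. Bnc1, a zinc finger gene of germ cells that is also expressed in keratinocytes, read 8.73 and 8.34. Its difference of -0.39 ran against that of the 6 higher genes. Bnc1 was thus bright in the fibroblasts with Lsh as well as in those without it.

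**Figure D2:**
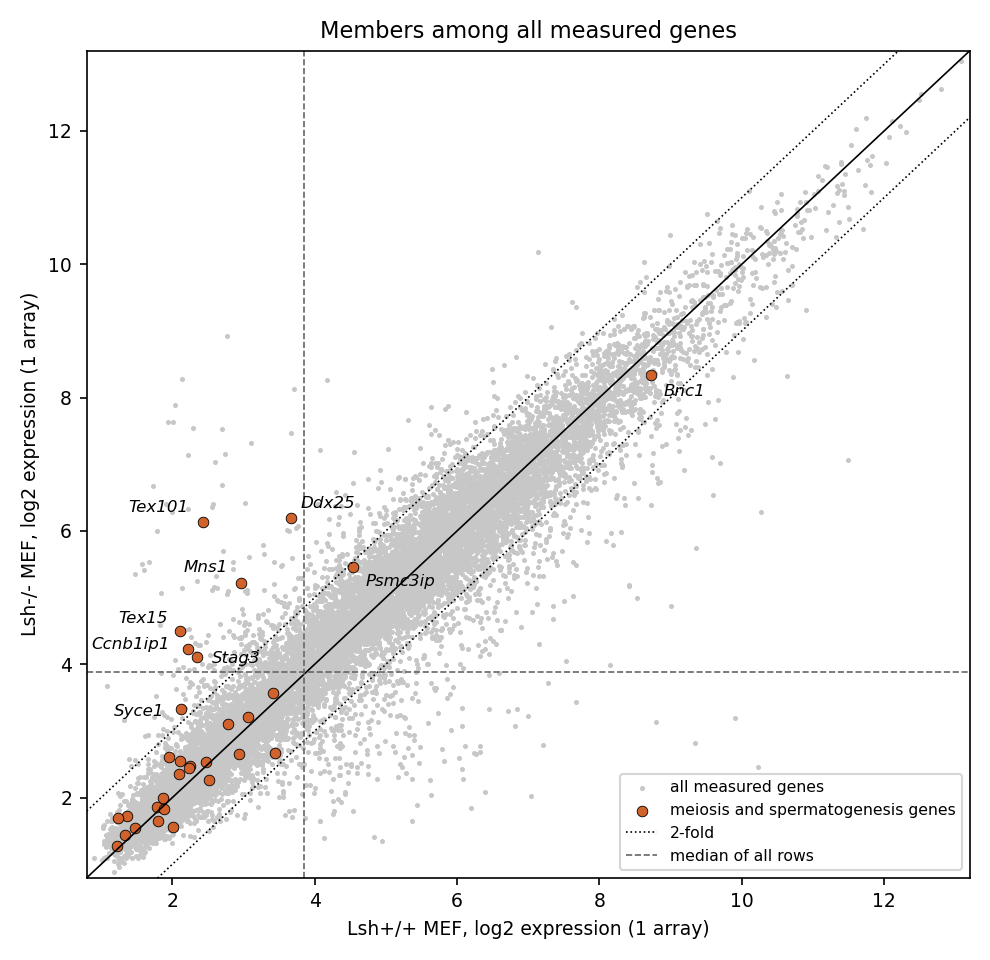
Log2 expression of 16579 measured genes in Lsh+/+ MEF (horizontal axis) and Lsh-/- MEF (vertical axis), 1 array each, with the 31 members in orange; the solid line marks equality, dotted lines 2-fold and dashed lines the median of all rows. Tex101, Ddx25, Mns1, Tex15, Ccnb1ip1 and Stag3 lie in the upper left region, dim in the wild type and above the median in the knockout.

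Over all 31 measured members the median difference was 0.21, against 0.015 over all measured genes, and 24 of the 31 differences lay above 0, but after scaling to the hybridisation controls the medians were -0.22 and -0.42 and 10 of the 31 lay above 0. The 6 higher members stayed past 2-fold under that scaling, which takes the same 0.44 from every difference. With the limit raised to the upper quartile of each array, 2 of the 6, Tex101 and Ddx25, still counted. The 23 members below the limit had a median of 0.13, with 17 above 0 and a range from -0.76 to 1.21, against a median of 0.023 over the 7411 measured genes below the limit. To show how the arrays read genes that fibroblasts are known not to use, the 37 measured olfactory receptor genes were taken as well, a set chosen after values were seen. All 37 were dim on both arrays, with differences from -0.36 to 0.42. Of the 23 dim members, 17 had a difference within that of the olfactory receptor genes, as did 84.8% of all genes below the limit. The dim members outside it were Syce1, Spo11, Tex11 and Taf7l above and Msh4 and Mlh3 below.

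The 6 higher genes did not lie together in the genome. They were spread over 5 chromosomes, with Ddx25 and Mns1 on chromosome 9, Stag3 on 5, Tex101 on 7, Tex15 on 8 and Ccnb1ip1 on 14. After the median difference of each chromosome was subtracted, their differences ran from 1.80 for Stag3 to 3.76 for Tex101. The nearest measured gene on each side gave 12 neighbours, of which 1, Gpc2 beside Stag3, was at least 2-fold higher and 0 were 2-fold lower. Over all measured genes the shares were 2.57% and 3.35%. Counts of 1 and 0 among 12 genes are near those shares, so nothing is read from them. The neighbours of Tex101, Lypd3 and Cd177, read 2.10 and 2.03, and 1.72 and 1.69, dim on both arrays. Those of Ddx25, Cdon and Pus3, differed by -0.22 and -0.042, and those of Tex15, Purg and Ppp2cb, by 0.051 and -0.37. Tex9, which overlaps Mns1 in the gene table and is itself named for testis expression, read 3.03 and 3.31 and stayed dim. The other 11 neighbours differed by less than 2-fold.

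Promoter windows of RefSeq (GRCm38.p6, from 250 bases before to 50 after the annotated start, 300 in all) were available for 31 of the 35 members, 28 of them measured. Tex15 had no window. The windows are shown because members that were higher and members that were not can be set side by side over the same length. In each, 3 motifs were searched on both strands: TCCCGC, the core bound by E2F proteins, CACGTG, the E-box bound by Max and its partners, and the palindromic GC-rich site of the methylation-sensitive factor NRF1. Letters in capitals mark matches, and no matches overlapped in the windows printed. The windows are those of Tex101 (chr7:24672001-24672300, minus strand), Ddx25 (chr9:35558421-35558720, minus), Mns1 (chr9:72438279-72438578, plus), Ccnb1ip1 (chr14:50795679-50795978, minus) and Stag3 (chr5:138280259-138280558, plus), which were higher in the knockout. The last is that of Tex12 (chr9:50561219-50561518, minus), the measured member that was dim on both arrays and held all 3 motifs in its window.
Tex101: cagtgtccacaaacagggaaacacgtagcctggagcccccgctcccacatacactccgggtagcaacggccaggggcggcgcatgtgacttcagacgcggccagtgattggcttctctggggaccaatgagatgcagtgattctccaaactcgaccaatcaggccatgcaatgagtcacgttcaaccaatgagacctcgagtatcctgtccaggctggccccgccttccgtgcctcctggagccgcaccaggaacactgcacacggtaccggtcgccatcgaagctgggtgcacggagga
Ddx25: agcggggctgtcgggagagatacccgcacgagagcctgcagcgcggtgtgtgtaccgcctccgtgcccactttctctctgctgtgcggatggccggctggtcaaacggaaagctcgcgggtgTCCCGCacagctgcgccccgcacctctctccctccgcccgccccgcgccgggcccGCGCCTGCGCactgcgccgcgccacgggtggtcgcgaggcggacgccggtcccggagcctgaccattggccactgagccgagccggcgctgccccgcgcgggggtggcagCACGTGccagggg
Mns1: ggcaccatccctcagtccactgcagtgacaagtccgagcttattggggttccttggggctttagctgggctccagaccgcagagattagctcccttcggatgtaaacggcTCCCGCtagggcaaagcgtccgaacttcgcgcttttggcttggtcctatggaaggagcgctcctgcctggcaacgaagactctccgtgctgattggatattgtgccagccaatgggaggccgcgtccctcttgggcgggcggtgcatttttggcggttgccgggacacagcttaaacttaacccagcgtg
Ccnb1ip1: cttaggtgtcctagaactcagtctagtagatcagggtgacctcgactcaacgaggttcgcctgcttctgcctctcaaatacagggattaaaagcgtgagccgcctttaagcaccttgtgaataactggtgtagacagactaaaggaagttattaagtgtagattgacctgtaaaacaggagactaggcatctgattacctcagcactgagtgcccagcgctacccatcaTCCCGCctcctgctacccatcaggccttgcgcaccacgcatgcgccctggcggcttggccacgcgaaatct
Stag3: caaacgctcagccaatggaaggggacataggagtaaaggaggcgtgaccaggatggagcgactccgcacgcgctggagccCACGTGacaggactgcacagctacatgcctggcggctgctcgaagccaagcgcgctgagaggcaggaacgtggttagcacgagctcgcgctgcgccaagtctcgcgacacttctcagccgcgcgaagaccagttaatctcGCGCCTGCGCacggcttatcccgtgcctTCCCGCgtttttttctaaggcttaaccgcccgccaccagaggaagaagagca
Tex12: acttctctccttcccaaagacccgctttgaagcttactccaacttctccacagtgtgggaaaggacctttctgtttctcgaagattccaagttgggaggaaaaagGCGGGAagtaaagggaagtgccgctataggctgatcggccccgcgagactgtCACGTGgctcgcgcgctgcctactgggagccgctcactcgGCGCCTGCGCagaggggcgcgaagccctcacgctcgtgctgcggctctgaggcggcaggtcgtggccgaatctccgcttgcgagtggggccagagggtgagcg

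Ddx25 and Stag3 each held 1 match to every motif, Mns1 and Ccnb1ip1 held the E2F core alone, and Tex101 held none of the 3. Tex12, at 1.79 and 1.87, held the same 3 motifs as Ddx25 and Stag3. It was printed because it was dim and held all 3, and any link of the motifs to the differences was not tested. The E2F core was present in 4 of the 5 higher members and in 8 of the 23 other measured members, against 30.8% of the 13096 measured genes with a window. The E-box was present in 2 of 5 and in 7 of 23, against 9.29%, and the NRF1 site in 2 of 5 and in 4 of 23, against 8.12%. All 3 occurred together in 2 of the 5 higher members and in 1 of the 23 others, in all 3 of the 28 measured members (10.7%), against 0.496% of measured genes. A match is a run of letters and does not show that a factor binds there. The cyclic AMP response element TGACGTCA, also searched, was in 0 of 31 windows, against 2.76% of measured genes.

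The CpG content of the windows overlapped between the higher members and the other measured members. The ratio of observed to expected CpG was 0.70 in Tex101, 0.97 in Ddx25, 0.74 in Mns1, 0.65 in Ccnb1ip1 and 1.06 in Stag3. Its median was 0.74 over these 5 and 0.72 over the 23 other measured members, and 0.69 over measured genes with a window. These 23 are not the 23 dim members. They include Psmc3ip at 0.81 and Bnc1 at 0.98, bright on both arrays, and lack the dim Spo11 and Tex11, which had no window. Of the 23, 10 lay below 0.65, the lowest ratio of a higher member, as did 45.5% of measured genes with a window. Among the 10 were Stra8 at 0.43, Msh4 at 0.44 and Sycp2 at 0.36. The other 13 shared the range of the higher members or exceeded it, such as Smc1b at 1.08 and Mlh3 at 1.14, and stayed within 2-fold. Methylation of these windows was not analysed here.

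**Figure D3:**
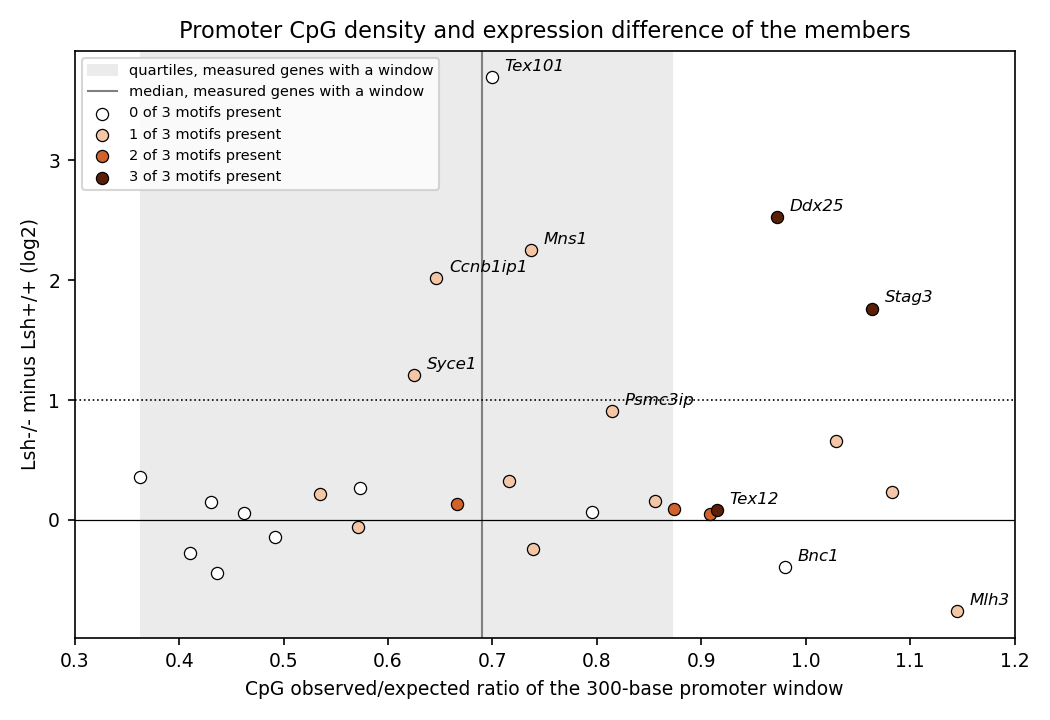
Ratio of observed to expected CpG in the 300-base promoter window (horizontal axis) against the log2 difference Lsh-/- minus Lsh+/+ (vertical axis) for the 28 measured members with a window, shaded by how many of the 3 motifs were present; the grey band spans the quartiles of measured genes with a window. The 5 higher members lie at ratios from 0.65 to 1.06, and 13 of the other 23 members lie at or above 0.65 as well.

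Other germ cell genes are given beside the shares over all measured genes, of which 7411 of 16579 were dim on both arrays, 2.57% were at least 2-fold higher and 3.35% lower; a count of 0 or 1 in a list of this size is near those shares. Of 25 measured further meiosis genes 14 were dim on both arrays and 0 were at least 2-fold higher or lower. The bright one farthest from 0 was the central element gene Syce2, bright on both arrays at 7.32 and 6.37. Of 23 measured genes of germ cell specification and RNA control, 1 was at least 2-fold higher and 20 were dim on both arrays. That gene, Mov10l1, a helicase that makes piRNAs in mouse testis, read 2.87 and 4.40, at least 1.46-fold higher over the limit. The medians of these lists were 0.19 and 0.16. Ddx4, the standard germ cell marker, read 1.17 and 1.49.

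Of 25 measured postmeiotic sperm genes 23 were dim on both arrays and 0 passed 2-fold, a count near the shares over all genes, with a median difference of 0.00 and a range from -0.43 to 0.48. The farthest from 0 among the kept ones was the sperm tail gene Odf2, at 4.08 and 3.75. The protamine gene Prm1 read 1.52 and 1.46 and the transition protein gene Tnp1 1.52 and 1.80. The summed level of this list on the linear scale was 191 and 183, with the largest part from Tbpl1, at 6.02 and 5.92. Tex101, Ddx25 and Mns1 were thus bright in the knockout while these defining genes of sperm chromatin were dim on both arrays.

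Markers of other gonadal or undifferentiated cells gave no shared direction. Of 12 oocyte genes 10 were dim on both arrays, the histone demethylase gene Kdm1b was 2.08-fold higher, at 4.18 and 5.24, and the transcription factor gene Lhx8 was at least 1.19-fold lower, at 4.13 and 2.40. Among 14 markers of gonadal somatic cells 9 were dim on both arrays, and of the bright ones Gata4 passed 2-fold, lower in the knockout at 6.58 and 5.48. Among the dim ones the steroid enzyme gene Cyp17a1 read 1.80 and 2.80, 2.01-fold higher as measured but below the limit and not counted. The summed linear level of the 14 was 843 and 668, most of it from Wt1 alone, at 9.29 and 8.93. Among 9 measured markers of undifferentiated germ and stem cells Dppa4 alone was above the limit, at 2.78 and 5.10. Its difference of 2.31, at least 2.36-fold over the limit, lay within the span of the 6 higher members. The summed linear level of that list was 42.3 and 69.4, and the rise came from Dppa4. Pou5f1 read 1.86 and 2.04.

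Of 15 measured somatic counterparts of the members 0 passed 2-fold, again near the shares over all genes, with a median of -0.007 and differences from -0.49 to 0.54, the latter for the mismatch repair gene Msh6 at 7.79 and 8.33. Stag1 and Stag2, cohesin subunits of somatic cells chosen here as counterparts of Stag3, differed in opposite directions, by 0.31 and -0.38, with Stag1 dim on both arrays. Of 13 measured genes reported to keep germline genes silent in somatic cells 12 were above the limit and 0 passed 2-fold, against 4.65% of kept genes that were higher and 6.06% that were lower. Among them E2f6 differed by 0.23, its partner Pcgf6 by -0.54, the maintenance methyltransferase Dnmt1 by 0.50 and its cofactor Uhrf1, the farthest from 0, by 0.78. E2f6, Pcgf6, Dnmt1, Stag1 and Stag2 were named after their values were seen.

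**Figure D4:**
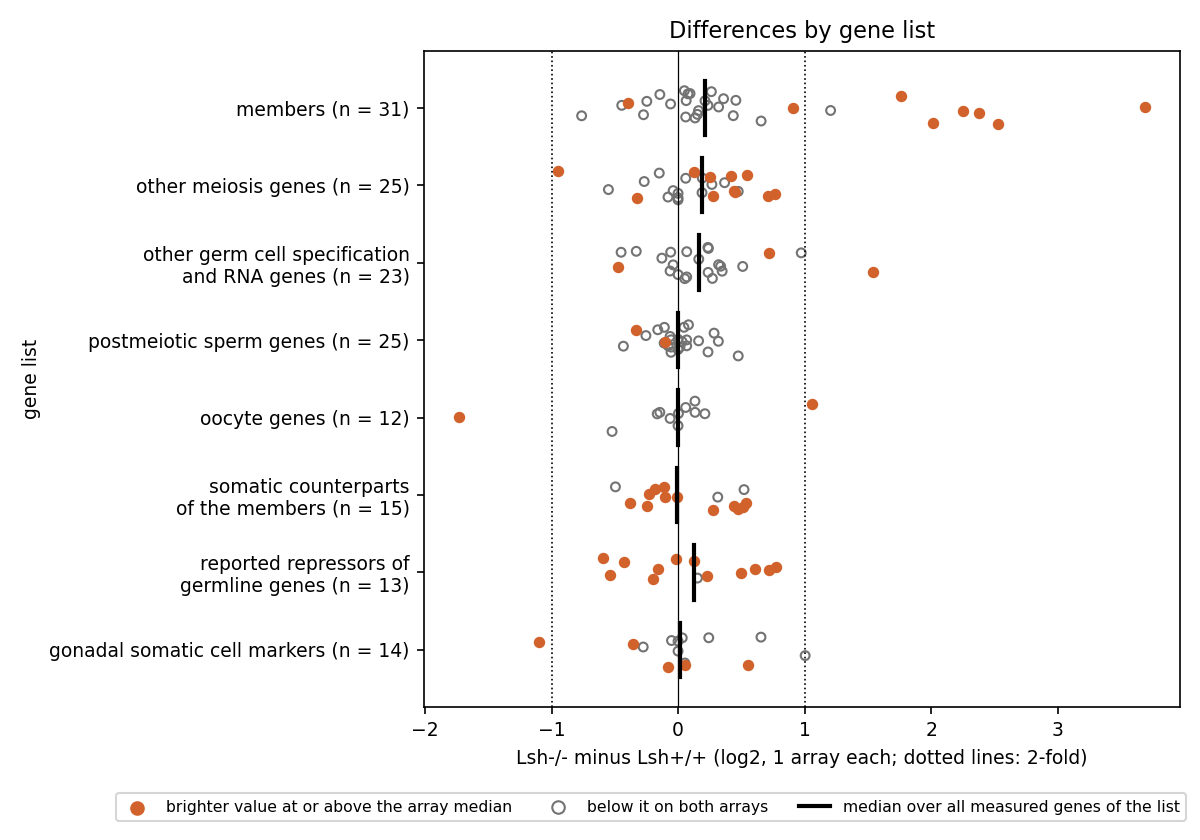
Log2 difference Lsh-/- minus Lsh+/+ (horizontal axis, 1 array each) of every measured gene in 8 lists (vertical axis, with the number measured); filled points had a brighter value at or above the array median, open points were below it on both arrays, bars mark list medians and dotted lines 2-fold. The 6 higher members lie at 1.76 to 3.69; of the other lists plotted, Mov10l1 comes closest, at 1.54. The undifferentiated germ and stem cell markers, with Dppa4 at 2.31, and the fibroblast markers are not plotted.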

How the data were processed

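RNA of 1 Lsh+/+ and 1 Lsh-/- MEF culture was measured on 1 array each. The values the authors deposited came from RMA, per the submitters' processing notes, a method that corrects background, makes arrays equal in quantiles and summarises probes by median polish. That the deposited values are on the log2 scale was read from their range, 0.89 to 13.1. RMA's version, the probe grouping and the genome build are not given in the sources used here. Scanner intensities were not used here. Of 23950 rows 64 were control probe sets and 21230 of the others matched 1 gene of the GRCm38.p6 RefSeq table by accession. The matched rows gave 16579 genes, each shown by the row with the highest mean, and 9168 were kept by the limit at the array median.

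Differences are knockout minus wild type. With 1 array per genotype no test was possible, and the number of arrays limits the precision of every value. Genes were counted at 2-fold, and "at least" folds set the brighter value against the limit of the other array. Quantile normalization and median polish over 2 arrays can pull dim values together. The same value on both arrays was held by 1105 rows, bright ones such as Adgrg2 at 7.65 among them, and the reason was not tested. The members, lists and alternatives were chosen with earlier results of these data known. All members are named; of each other list, genes past 2-fold with the limit, at most 4 per direction, or else the kept one farthest from 0, and others where stated. Counting was tested on simulated data. Python 3.11.15, numpy 2.4.6, pandas 2.3.3 and statsmodels 0.14.6 were used.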

Additional observations from a re-analysis of the deposited data

How the results depend on the processing

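No paired analysis was possible because there was 1 array per genotype, and no replicate could be left out. The count of 6 members at least 2-fold higher became 2 when the upper quartile served as limit and 2 after 32 was added to linear values as a pseudocount, Tex101 and Ddx25 both times, and was 6 or 7 under the other 8 alternatives. The count of lower members was 0 under all 10, but wherever a limit applied a member dim in the wild type could not count as lower. Tex101 and Ddx25 were counted under 10 of 10 alternatives, and Mns1, Tex15, Ccnb1ip1 and Stag3 under 8 of 10. Several alternatives could not drop any of the 6, so these tallies do not measure how firm a call is. Each of the 6 had 1 row, so averaging rows changed nothing, and dropping the limit or lowering the threshold only loosens the rule. Chromosome medians and the control shift of 0.44 were too small to bring a difference of 1.76 below 2-fold. The median difference of 0.213 over all measured members was 0.191 after quantile normalization, 0.189 after lowess, 0.0328 with the pseudocount, 0.205 after subtracting chromosome medians and -0.224 after scaling to the hybridisation controls, which moved the median of all measured genes to -0.42 and left 10 of 31 members above 0. The 6 higher members kept their direction under that scaling, from 1.33 for Stag3 to 3.26 for Tex101, and each difference is relative to the other genes of these arrays. Over all genes the counts of 426 higher and 556 lower became 225 and 314 with the upper quartile, 101 and 193 with the pseudocount, 168 and 1349 with the hybridisation controls, 1254 and 1267 at 1.5-fold and 131 and 240 at 3-fold; the share of higher genes among them, 43.4% at first, was 34.4% with the pseudocount and 11.1% with the hybridisation controls. A stricter limit or threshold must count fewer genes. Signal over background is not known here, so a dim value does not show that a gene was silent.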

Other observations

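Genes named for testis expression, taken by symbol after values were seen, were mostly dim as well. Over all measured genes 7411 of 16579 were dim on both arrays, 2.57% were at least 2-fold higher and 3.35% lower. Of 34 measured genes whose symbol is Tex with a number, 26 were dim on both arrays and 2, Tex101 and Tex15, passed 2-fold upward in the knockout, with a median difference of 0.068. Both are members chosen with their differences known, so their count is not a separate observation. Of 20 measured Spata genes, named for spermatogenesis, 17 were dim on both arrays and 0 passed 2-fold in either direction, a count near the shares over all genes. The 6 measured Tssk genes, which encode kinases of spermatids, were all dim on both arrays, with differences from -0.11 to 0.32.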
